A study of Mus musculus with 12 samples.

Results

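The mitosis genes are 43 genes of the late cell cycle, from the kinase and cyclins that start mitosis to the proteins that split the cell in cytokinesis. The members were given as a list of gene symbols and matched to Ensembl IDs. The rule that lists them uses no measured value, but the list was drawn up with earlier results of these data known. All 43 were among the 54232 genes of the count table, and all 43 had at least 10 counts in at least 2 libraries, as had 16281 genes in all, so no member was lost to this filter. They were followed in bone marrow derived macrophages (BMDMs) of wild-type C57BL/6 mice, cells that divide under macrophage growth factor before they settle into a resting state. After 5 days of culture, BMDMs were kept for 24 h with tumor-conditioned medium (TCM) or in its absence. Either condition was combined with 500 nM R788 (fostamatinib), which inhibits the tyrosine kinase Syk, or left without it. In the methods NB9464 TCM came first and R788 was added afterwards for 24 h, and the interval between them is not given. There were 6 groups of 2 libraries: no TCM and no R788 (NS, libraries SJ1 and SJ2), TCM of NB9464 (SJ3 and SJ4), TCM of NBT3L (SJ5 and SJ6), R788 alone (SJ7 and SJ8), NB9464 TCM + R788 (SJ9 and SJ10) and NBT3L TCM + R788 (SJ11 and SJ12). NB9464 is a mouse neuroblastoma line with amplified MYCN and NBT3L one without it, and each kind of TCM came from a single line. NB9464 TCM was collected over 48 h in DMEM without serum, and the preparation of NBT3L TCM, the medium of NS and the vehicle of R788 are not given in the sources used here. The methods give RPMI with serum and macrophage growth factor (M-CSF) for BMDM culture, and do not say whether M-CSF was present in TCM or NS. An effect of tumor products and an effect of base medium, serum or M-CSF therefore cannot be told apart. Whether the 2 libraries of a group came from separate cultures or mice is not stated either, so p-values measure the spread between these libraries, which may be technical.

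Entry into mitosis is driven by the kinase Cdk1 bound to cyclin B, and the transcription factors B-Myb and FoxM1 switch on the genes of this phase in G2. Aurora and Polo-like kinases then build the spindle, kinetochores attach chromosomes to it, and the spindle checkpoint holds the anaphase-promoting complex (APC/C) in check until every chromosome is attached. The APC/C then marks securin and cyclin B for destruction, and motor proteins and a contractile ring finish the division. Transcripts of these genes are low in resting cells, among them mature macrophages, and are commonly read as a sign of cycling cells. In a bulk library, fewer cycling cells and less RNA of these genes in each cell cannot be told apart.

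Total counts were between 44977847 and 56449685 per library, and the lowest count of any member in any library was 189. R788 library SJ8 had the highest total but the fewest genes with a count, 16149, against 17275 to 18343 in the others. The SD of the log2 difference between the 2 libraries of a group, over the 43 members, was lowest in NS (0.098) and higher in R788 (0.214) and NB9464 TCM + R788 (0.223). All 10 macrophage markers were detected in every library, with a summed level between 73145 and 87704 TPM (transcript abundance relative to library total, computed from counts and gene length), of which the lysozyme gene Lyz2 made up most. Among 13 neuroblastoma markers, 12 stayed under 1 TPM in every library, and Th and Chga were at 0 throughout.

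Many genes of this phase carry a CHR element (TTTGAA or TTCGAA), which the DREAM and B-Myb complexes bind, close to CCAAT boxes, which bind the factor NF-Y. RefSeq promoter windows (GRCm38.p6, 250 bases before to 50 bases after a start) were matched for 36 of the 43 members, in 39 windows. No window was matched for Foxm1, Ccna2, Aurkb, Spc24, Tpx2, Dlgap5 and Kif20a. CHR letters, searched on both strands, were in 30 of the 39 windows (76.9%), against 19.2% of all 32851 windows and 14.2% of the 14319 windows of genes tested here. A CCAAT box was in 25 of them (64.1%), against 37.4% and 37.5%, and both were in 23 (59.0%), against 7.52% and 5.76%. Overlap between the 2 motifs was not counted, and a match is a description of letters, not a bound site. The windows of Ccnb2, Cdk1 and Plk1 are shown because they hold both motifs in genes with large falls in TCM (Ccnb2 and Plk1) and with one of the smaller falls (Cdk1). Those of Mybl2 and Pttg1 hold neither, and these are the 2 members that differed least from NS in either TCM. The Pttg1 window lies wholly inside the annotated gene (43420250 to 43426251, minus strand). Bases upstream of the annotated 5′ end of Pttg1 were therefore not searched. The next smallest falls with NB9464 TCM were those of Aurka and Cdk1, whose windows hold both motifs. The windows of Birc5, Mad2l1, Melk, Nuf2 and Nusap1 hold neither as well, and Nusap1 had one of the largest falls with NB9464 TCM. Capitals mark CHR letters and CCAAT boxes on either strand, the latter reading ATTGG when on the other strand, and bases run 5′ to 3′ on the strand of the gene.
Ccnb2 (chr9:70421505-70421804, minus strand): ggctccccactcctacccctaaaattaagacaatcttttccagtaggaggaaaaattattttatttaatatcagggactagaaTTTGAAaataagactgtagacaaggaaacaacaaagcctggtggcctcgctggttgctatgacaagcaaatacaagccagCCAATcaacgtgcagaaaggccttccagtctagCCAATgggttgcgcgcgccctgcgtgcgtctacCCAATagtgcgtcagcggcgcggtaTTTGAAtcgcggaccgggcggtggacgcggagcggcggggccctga
Cdk1 (chr10:69352863-69353162, minus strand): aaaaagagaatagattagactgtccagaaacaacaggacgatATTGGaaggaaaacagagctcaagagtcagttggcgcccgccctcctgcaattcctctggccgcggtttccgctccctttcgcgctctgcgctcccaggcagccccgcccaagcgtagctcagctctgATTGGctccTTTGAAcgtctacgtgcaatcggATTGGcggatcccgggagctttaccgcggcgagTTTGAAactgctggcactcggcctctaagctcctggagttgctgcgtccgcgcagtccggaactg
Plk1 (chr7:122159185-122159484, plus strand): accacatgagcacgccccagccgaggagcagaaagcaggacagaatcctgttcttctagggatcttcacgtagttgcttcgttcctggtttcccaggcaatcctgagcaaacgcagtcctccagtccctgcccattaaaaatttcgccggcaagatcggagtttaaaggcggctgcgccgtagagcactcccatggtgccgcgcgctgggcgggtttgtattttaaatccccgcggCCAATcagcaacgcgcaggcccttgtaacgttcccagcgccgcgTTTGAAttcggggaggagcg
Mybl2 (chr2:163054385-163054684, plus strand): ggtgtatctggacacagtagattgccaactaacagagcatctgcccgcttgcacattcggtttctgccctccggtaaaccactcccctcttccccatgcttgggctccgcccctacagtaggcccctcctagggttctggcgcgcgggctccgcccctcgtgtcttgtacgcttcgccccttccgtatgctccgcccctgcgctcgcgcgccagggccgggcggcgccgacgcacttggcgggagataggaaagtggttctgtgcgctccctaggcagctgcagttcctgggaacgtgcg
Pttg1 (chr11:43425932-43426231, minus strand): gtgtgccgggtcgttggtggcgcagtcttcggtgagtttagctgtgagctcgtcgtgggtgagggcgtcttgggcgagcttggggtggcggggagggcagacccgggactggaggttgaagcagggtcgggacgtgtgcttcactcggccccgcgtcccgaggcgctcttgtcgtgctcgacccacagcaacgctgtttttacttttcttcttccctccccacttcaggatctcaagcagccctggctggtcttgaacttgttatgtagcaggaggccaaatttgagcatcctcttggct
Among members with a window, the median log2 fold change with NB9464 TCM was -2.08 for the 27 with CHR letters and -1.81 for the 9 without. Pttg1, with its window inside the gene, is counted among those without. The windows of Kif2c and Kif4 also lie wholly inside the annotated genes, and both members are counted among those with CHR letters. Bases upstream of their annotated 5′ ends were not searched either. The same medians were -2.08 and -1.91 with NBT3L TCM and -0.58 and -0.62 with R788 alone, so the members with these letters stood no further from the others with R788.

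The first question was how conditioned medium of either neuroblastoma line moved the mitosis genes. In NB9464 TCM all 43 were called lower than in NS (adjusted p under 0.05, DESeq2), with a median log2 fold change of -2.01, and the median member kept 24.8% of its NS level. In NBT3L TCM 42 of 43 were called lower, all but Pttg1, with a median of -2.02, and the median member kept 24.7%. The extremes were the same genes in both. Cenpf, a large kinetochore protein, was lowest (-2.71 and -2.77), and Pttg1, which encodes securin, was highest (-0.58 and -0.19). Of all 16281 genes tested, 34.1% were called with NB9464 TCM and 16.9% were called lower, and the median of all genes was 0.02. With NBT3L TCM 35.3% were called and 17.3% called lower, and the median was 0.00. The median-of-ratios scaling between libraries holds the typical gene near 0. All-gene medians, here and with R788 alone, therefore cannot show whether total RNA changed. Both TCM libraries lay below both NS libraries for all 43 members with either medium, as for 31.7% and 33.9% of all genes. Both comparisons use the same 2 NS libraries, so they are not independent of each other. The 43 members together summed to 3348 and 3262 TPM in NS, 731 and 686 in NB9464 TCM and 658 and 664 in NBT3L TCM.

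**Figure D1:**
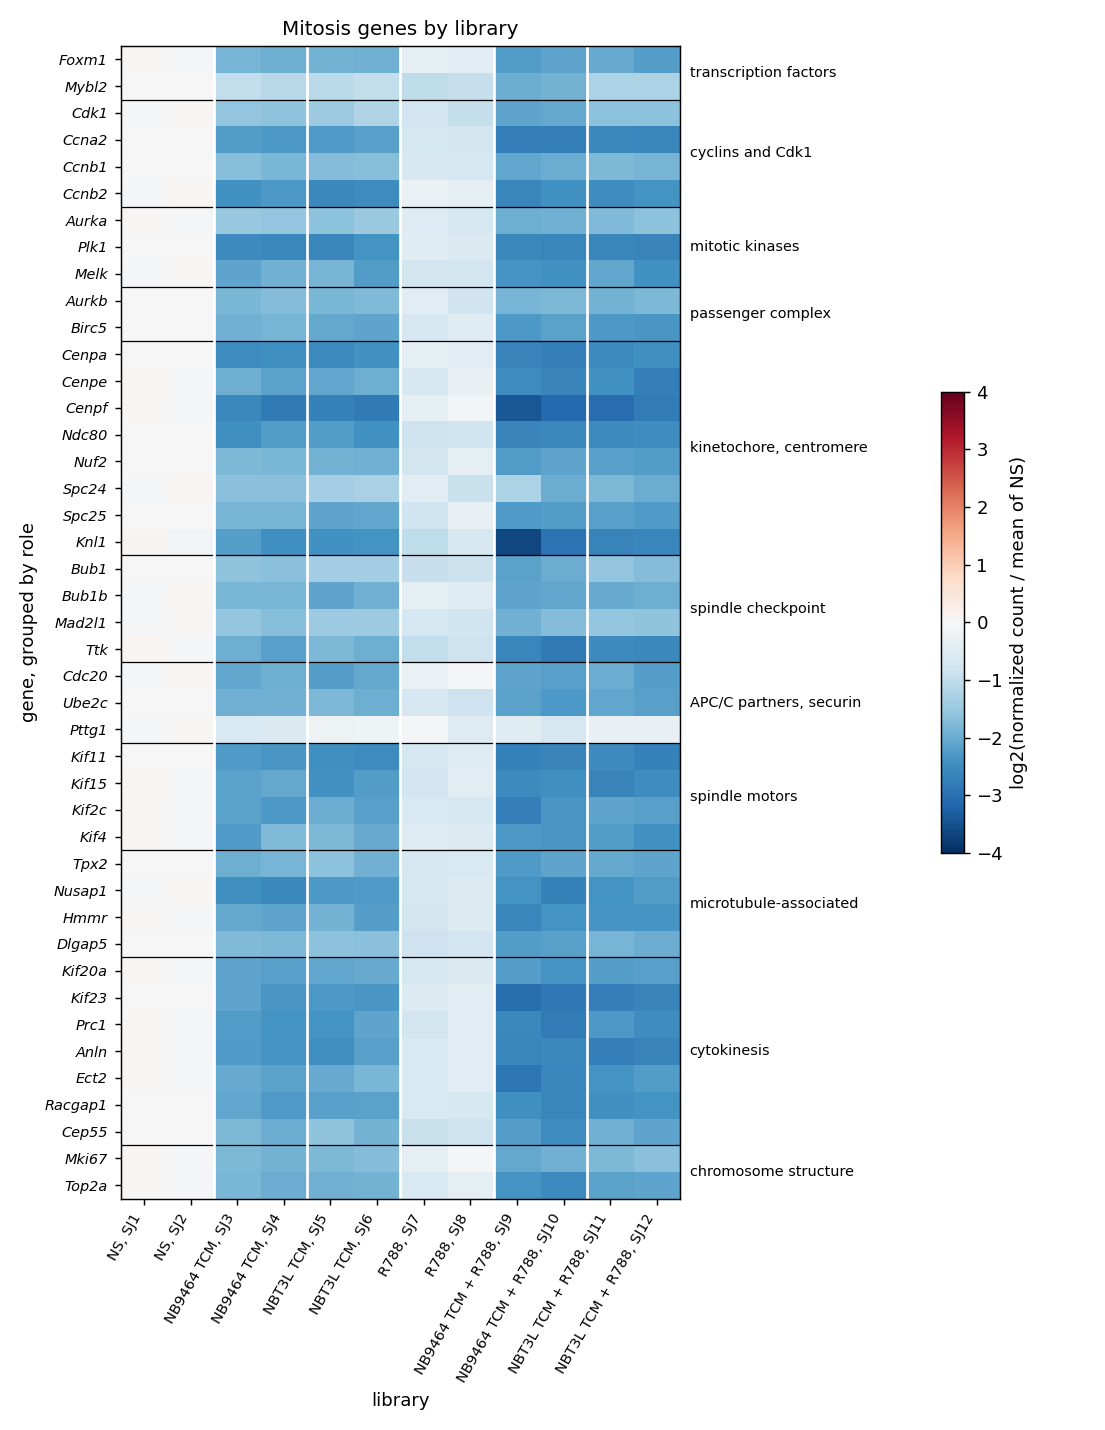
Heat map of the 43 mitosis genes (rows, grouped by role) in the 12 libraries (columns), as the log2 ratio of the normalized count to the mean of the 2 NS libraries (blue lower, red higher). The 8 libraries with TCM are dark blue for nearly every gene except Pttg1 and, less strongly, Mybl2, and the 2 libraries with R788 alone are pale blue.

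Cdk1 and the mitotic cyclins make up the kinase that drives cells into mitosis. The normalized counts of Cdk1 were 8449 and 8840.0 in NS, 2873 and 2839.8 in NB9464 TCM, 3163 and 3752 in NBT3L TCM, 5079 and 4512 with R788, 1993 and 2096 with NB9464 TCM + R788, and 2777 and 2763 with NBT3L TCM + R788. Counts of Cdk1 (ENSMUSG00000019942, chromosome 10, 69335146 to 69352938, GRCm38) thus lay in the order NS, R788, then the TCM groups, with no overlap between NS and any other group. Its log2 fold change was -1.60 ± 0.092 (SE, DESeq2 adjusted p = 2.06e-66) with medium of NB9464 and -1.32 ± 0.092 (adjusted p = 1.21e-45) with that of NBT3L. Ccnb1 encodes cyclin B1, the partner of Cdk1 at entry. Ccnb1 had normalized counts of 6585 and 6629.8 in NS, 2028 and 1875 in NB9464 TCM, 2005 and 2019 in NBT3L TCM, 4257 and 4096 with R788, 1555 and 1662 with NB9464 TCM + R788, and 1904 and 1834 with NBT3L TCM + R788. It fell by a similar amount in both media, with log2 fold changes of -1.76 ± 0.081 (adjusted p = 1.45e-101) and -1.72 ± 0.082 (adjusted p = 3.25e-95). Ccnb2, cyclin B2, had the highest level of all members per length, 235 TPM in NS on average. In normalized counts, Ccnb2 stood at 5306 and 6001 in NS, 1051 and 1152 in NB9464 TCM, 943 and 989 in NBT3L TCM, 4658 and 4303 with R788, 919 and 1061 with NB9464 TCM + R788, and 1017 and 1075 with NBT3L TCM + R788. The 8 TCM libraries lay between 919 and 1152, below both NS and both R788 libraries, and the groups with and without R788 overlapped in NB9464 TCM. In NBT3L TCM both libraries with R788 lay above both without it. Its log2 fold change was -2.36 ± 0.11 (adjusted p = 1.22e-104) and -2.55 ± 0.11 (adjusted p = 1.94e-118). Ccna2 encodes cyclin A2, which acts from S phase to early mitosis. Counts of Ccna2, normalized for depth, were 9121 and 8872 in NS, 1924 and 1836 in NB9464 TCM, 1891 and 2013 in NBT3L TCM, 5559 and 5434 with R788, 1319.9 and 1337 with NB9464 TCM + R788, and 1504 and 1484 with NBT3L TCM + R788. Here the groups with both TCM and R788 lay below those with TCM alone without overlap. Ccna2 had the largest Wald statistic of the group, with log2 fold changes of -2.26 ± 0.075 (adjusted p = 3.49e-195) and -2.20 ± 0.076 (adjusted p = 8.65e-183). Its exons overlap those of Exosc9 on the other strand, which averaged 15.9 TPM, and whether counting used the strand is not given in the sources used here.

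Foxm1 and Mybl2 (B-Myb) are the factors that activate the G2/M genes, and they differed in size of change. The normalized counts of Foxm1 were 5726 and 5279.6 in NS, 1531 and 1409 in NB9464 TCM, 1480.2 and 1441 in NBT3L TCM, 4157 and 4010.3 with R788, 1159.8 and 1268 with NB9464 TCM + R788, and 1362 and 1186 with NBT3L TCM + R788. Foxm1 fell about as the median member did, with log2 fold changes of -1.90 ± 0.10 (SE, DESeq2 adjusted p = 1.96e-79) with medium of NB9464 and -1.91 ± 0.10 (adjusted p = 4.85e-79) with that of NBT3L. Mybl2 had normalized counts of 1712 and 1769 in NS, 877 and 814 in NB9464 TCM, 833 and 886 in NBT3L TCM, 869.8 and 928 with R788, 436 and 474 with NB9464 TCM + R788, and 729.6 and 727 with NBT3L TCM + R788. Mybl2 was thus about equally low in both TCM groups and with R788 alone, and lowest with NB9464 TCM + R788. Its log2 fold change was -1.04 ± 0.13 (adjusted p = 6.88e-15) with medium of NB9464 and -1.02 ± 0.13 (adjusted p = 4.68e-14) with that of NBT3L, after Pttg1 the smallest of the members.

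Plk1, Aurka and Melk are mitotic kinases, and all 3 were lower in both media. Plk1 (Polo-like kinase 1) acts in centrosome maturation and spindle assembly. In normalized counts, Plk1 stood at 4427 and 4548 in NS, 769 and 751 in NB9464 TCM, 729 and 855 in NBT3L TCM, 3206 and 2999.5 with R788, 750.0 and 731 with NB9464 TCM + R788, and 740.2 and 713 with NBT3L TCM + R788. The TCM libraries, with or without R788, spanned only 713 to 855. Plk1 had one of the largest falls of all members, with log2 fold changes of -2.56 ± 0.11 (SE, DESeq2 adjusted p = 3.04e-123) and -2.50 ± 0.11 (adjusted p = 3.28e-115). Aurkb and Birc5 encode Aurora B and survivin, the kinase and the targeting subunit of the chromosomal passenger complex that corrects faulty attachments. Counts of Aurkb, normalized for depth, were 5372 and 5464 in NS, 1521 and 1628 in NB9464 TCM, 1531 and 1578 in NBT3L TCM, 3932 and 3106 with R788, 1483 and 1566 with NB9464 TCM + R788, and 1475 and 1552 with NBT3L TCM + R788. The R788 libraries differed from each other more than those of any other group did. The normalized counts of Birc5 were 6028 and 5879.8 in NS, 1559 and 1629 in NB9464 TCM, 1448 and 1371 in NBT3L TCM, 3753 and 4287 with R788, 1209.5 and 1357 with NB9464 TCM + R788, and 1214 and 1191 with NBT3L TCM + R788. In both TCM groups the 2 genes kept between 23.7% and 29.1% of their NS level. Log2 fold changes of Aurkb were -1.78 ± 0.11 (adjusted p = 9.87e-57) and -1.80 ± 0.11 (adjusted p = 2.89e-57), and those of Birc5 were -1.90 ± 0.098 (adjusted p = 1.06e-82) and -2.08 ± 0.099 (adjusted p = 1.98e-96).

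The 8 kinetochore and centromere genes (Cenpa, Cenpe, Cenpf, Ndc80, Nuf2, Spc24, Spc25 and Knl1) were all lower in both media, with medians of -2.18 and -2.21. Ndc80 is the subunit that grips the microtubule. Ndc80 had normalized counts of 3189 and 3136 in NS, 577 and 668 in NB9464 TCM, 669.6 and 585 in NBT3L TCM, 1774 and 1829 with R788, 509 and 525 with NB9464 TCM + R788, and 545 and 563 with NBT3L TCM + R788. Cenpa, the histone H3 variant that marks the centromere, gave similar separation. In normalized counts, Cenpa stood at 5227 and 5419 in NS, 934 and 977 in NB9464 TCM, 917 and 999 in NBT3L TCM, 4081 and 4008 with R788, 843 and 794 with NB9464 TCM + R788, and 920.4 and 967 with NBT3L TCM + R788. Neither gene had any overlap between NS or R788 and the 8 TCM libraries. Log2 fold changes were -2.35 ± 0.12 (SE, DESeq2 adjusted p = 3.22e-77) and -2.33 ± 0.13 (adjusted p = 5.8e-75) for Ndc80, and -2.48 ± 0.094 (adjusted p = 3.34e-150) and -2.47 ± 0.095 (adjusted p = 7.25e-146) for Cenpa. Cenpf, the largest fall of all members, had a low level per length, 12.2 TPM in NS and 1.57 and 1.37 TPM in the 2 TCM groups.

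The spindle checkpoint genes Bub1, Bub1b, Mad2l1 and Ttk (Mps1) were all lower in both media, with somewhat smaller medians of -1.74 and -1.66. Bub1b encodes BubR1, part of the complex that inhibits the APC/C. Counts of Bub1b, normalized for depth, were 6399 and 7076 in NS, 1882 and 1884 in NB9464 TCM, 1559 and 1770.3 in NBT3L TCM, 5145 and 4801 with R788, 1569 and 1612 with NB9464 TCM + R788, and 1677 and 1722 with NBT3L TCM + R788. Its log2 fold changes were -1.84 ± 0.091 (SE, DESeq2 adjusted p = 6.64e-89) and -2.02 ± 0.092 (adjusted p = 3.05e-104). Cdc20 and Ube2c are an activator and the ubiquitin-conjugating enzyme of the APC/C. The normalized counts of Cdc20 were 4344 and 4787 in NS, 1082 and 1182 in NB9464 TCM, 999 and 1104 in NBT3L TCM, 3797 and 4281 with R788, 1063 and 1024 with NB9464 TCM + R788, and 1154 and 985 with NBT3L TCM + R788. Cdc20 showed a contrast between treatments, with R788 libraries only slightly below NS and all 8 TCM libraries between 985 and 1182. Its exons overlap those of Elovl1 on the other strand, which averaged 156 TPM, so its level is uncertain if counting ignored the strand. Ube2c had normalized counts of 6323 and 6232 in NS, 1664 and 1668 in NB9464 TCM, 1816 and 1638 in NBT3L TCM, 3909 and 3537 with R788, 1420.4 and 1281 with NB9464 TCM + R788, and 1476 and 1402 with NBT3L TCM + R788. Log2 fold changes were -2.01 ± 0.11 (adjusted p = 5.83e-68) and -2.12 ± 0.12 (adjusted p = 9.82e-74) for Cdc20, and -1.91 ± 0.094 (adjusted p = 2.09e-89) and -1.86 ± 0.095 (adjusted p = 8.34e-84) for Ube2c. Pttg1, which encodes securin, was named for its values because it was the extreme of the members. In normalized counts, Pttg1 stood at 1268 and 1357 in NS, 869 and 888 in NB9464 TCM, 1129 and 1171 in NBT3L TCM, 1279.7 and 925 with R788, 937 and 824 with NB9464 TCM + R788, and 1076 and 1067 with NBT3L TCM + R788. Pttg1 and Mybl2 were the only 2 members in which any TCM library reached the range of the libraries without TCM. Its log2 fold change was -0.58 ± 0.16 (adjusted p = 0.000873) in NB9464 TCM. With medium of NBT3L the change was -0.19 ± 0.16 (adjusted p = 0.381), and its 95% interval ran from -0.49 to 0.11.

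The spindle motors Kif11, Kif15, Kif2c and Kif4 were all lower, with medians of -2.15 and -2.20. Kif11 (Eg5) pushes the spindle poles apart. Counts of Kif11, normalized for depth, were 7513 and 7807 in NS, 1595 and 1521 in NB9464 TCM, 1387 and 1328 in NBT3L TCM, 4719.8 and 5354 with R788, 1179 and 1241 with NB9464 TCM + R788, and 1303 and 1178 with NBT3L TCM + R788. Its log2 fold changes were -2.30 ± 0.093 (SE, DESeq2 adjusted p = 4.17e-132) and -2.50 ± 0.095 (adjusted p = 2.1e-151). Tpx2, which activates Aurora A on the spindle, and Nusap1, which bundles microtubules, stand for 4 microtubule-associated members with Hmmr and Dlgap5. The normalized counts of Tpx2 were 8419.8 and 8442 in NS, 2174 and 2303 in NB9464 TCM, 2730.3 and 2209 in NBT3L TCM, 5287 and 5516 with R788, 1741 and 1960.5 with NB9464 TCM + R788, and 2048 and 1952 with NBT3L TCM + R788. Nusap1 had normalized counts of 4497 and 4918 in NS, 868 and 796 in NB9464 TCM, 958 and 968 in NBT3L TCM, 2895 and 3210.3 with R788, 898 and 728 with NB9464 TCM + R788, and 905 and 989.7 with NBT3L TCM + R788. All TCM libraries were below all libraries without TCM for both genes. Tpx2 gave -1.91 ± 0.099 (adjusted p = 5.89e-81) and -1.77 ± 0.099 (adjusted p = 2.8e-69), and Nusap1 gave -2.50 ± 0.12 (adjusted p = 1.62e-93) and -2.29 ± 0.12 (adjusted p = 3.72e-78). Exons of Nusap1 overlap those of Oip5 on the other strand, which averaged 12.6 TPM. The 7 cytokinesis members (Kif20a, Kif23, Prc1, Anln, Ect2, Racgap1 and Cep55) were also all lower, with medians of -2.18 and -2.15. Racgap1, with Kif23, forms the centralspindlin complex of the midzone. In normalized counts, Racgap1 stood at 10175 and 10383 in NS, 2411 and 2123 in NB9464 TCM, 2286 and 2342 in NBT3L TCM, 6777 and 6612 with R788, 1867 and 1693 with NB9464 TCM + R788, and 1883 and 1939 with NBT3L TCM + R788. Its log2 fold changes were -2.18 ± 0.082 (adjusted p = 1.14e-154) and -2.15 ± 0.082 (adjusted p = 1.48e-148). Mki67 (Ki-67, which coats mitotic chromosomes and is the usual marker of cycling cells) and Top2a (topoisomerase II alpha, which untangles sister DNA) had the highest normalized counts. Counts of Mki67, normalized for depth, were 22477 and 21047 in NS, 6279 and 5925 in NB9464 TCM, 6250.2 and 6526 in NBT3L TCM, 16728 and 20861 with R788, 5293 and 5767 with NB9464 TCM + R788, and 6312 and 6832 with NBT3L TCM + R788. The normalized counts of Top2a were 22670.0 and 21284 in NS, 6215 and 5565 in NB9464 TCM, 5739 and 5969 in NBT3L TCM, 14408 and 17113 with R788, 4263 and 3774 with NB9464 TCM + R788, and 4942 and 5076 with NBT3L TCM + R788. For Mki67, R788 library SJ8 nearly reached the lower NS library while SJ7 lay well below it. Mki67 gave -1.83 ± 0.089 (adjusted p = 1.07e-91) and -1.77 ± 0.090 (adjusted p = 5.08e-85), and Top2a -1.90 ± 0.086 (adjusted p = 7.26e-105) and -1.91 ± 0.087 (adjusted p = 2.34e-105).

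**Figure D2:**
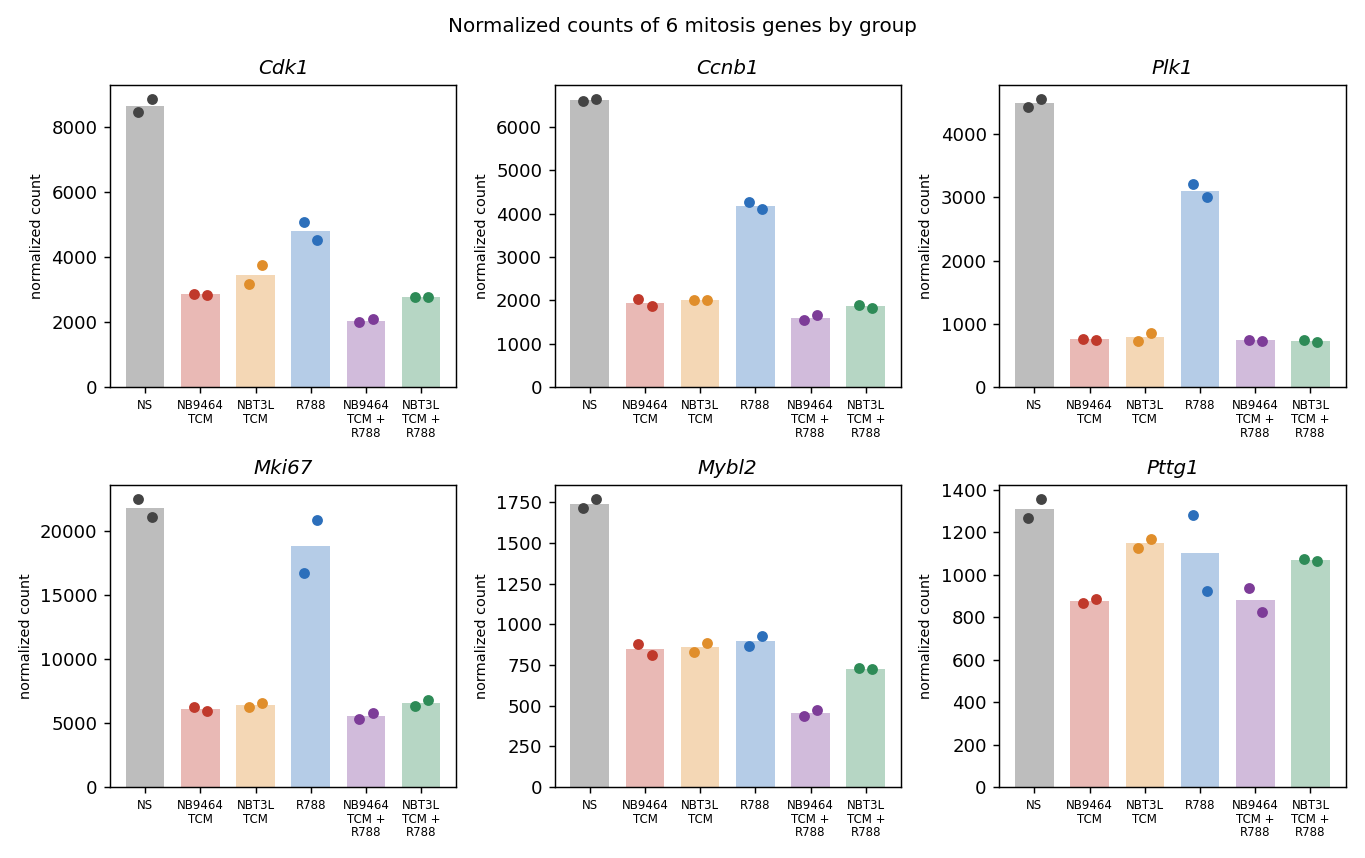
Normalized counts (linear axis from 0) of Cdk1, Ccnb1, Plk1, Mki67, Mybl2 and Pttg1 in the 6 groups. Bars are group means and points the 2 libraries, and only Pttg1 keeps most of its NS level in both TCM groups.

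The second question was what the Syk inhibitor R788 did to these genes in macrophages without TCM. With R788 alone all 43 members had a value below 0 against NS and 39 were called lower, with a median log2 fold change of -0.61, and the median member kept 65.4% of its NS level. Over all genes, 26.6% were called with R788 and 15.0% called lower, with a median of 0.00. Both R788 libraries lay below both NS libraries for 42 of 43 members, as for 29.4% of all genes, with Pttg1 as the exception. Mybl2 had the largest fall, -0.95 ± 0.13 (SE, DESeq2 adjusted p = 2.19e-12), followed by the checkpoint kinase gene Ttk at -0.89 ± 0.16 (adjusted p = 3.14e-07) and Bub1 at -0.88 ± 0.092 (adjusted p = 3.12e-20). Cdk1 followed with -0.85 ± 0.091 (adjusted p = 3.03e-19). The cyclins Ccna2 and Ccnb1 gave -0.71 ± 0.073 (adjusted p = 8.5e-21) and -0.66 ± 0.080 (adjusted p = 2.95e-15), and Ccnb2, at the other end, gave -0.34 ± 0.10 (adjusted p = 0.00636). The 4 members that were not called were Cdc20 at -0.18 ± 0.11 (adjusted p = 0.249), Mki67 at -0.21 ± 0.089 (adjusted p = 0.0566), Cenpf at -0.25 ± 0.15 (adjusted p = 0.23) and Pttg1 at -0.25 ± 0.15 (adjusted p = 0.23). The 2 R788 libraries set the size of the median: it was -0.56 without SJ7 and -0.67 without SJ8, with 38 members called in each case. Mki67 was called without SJ8 (-0.38), and Ccnb2 lost its call without SJ8 (-0.28) or without NS library SJ2 (-0.25).

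**Figure D3:**
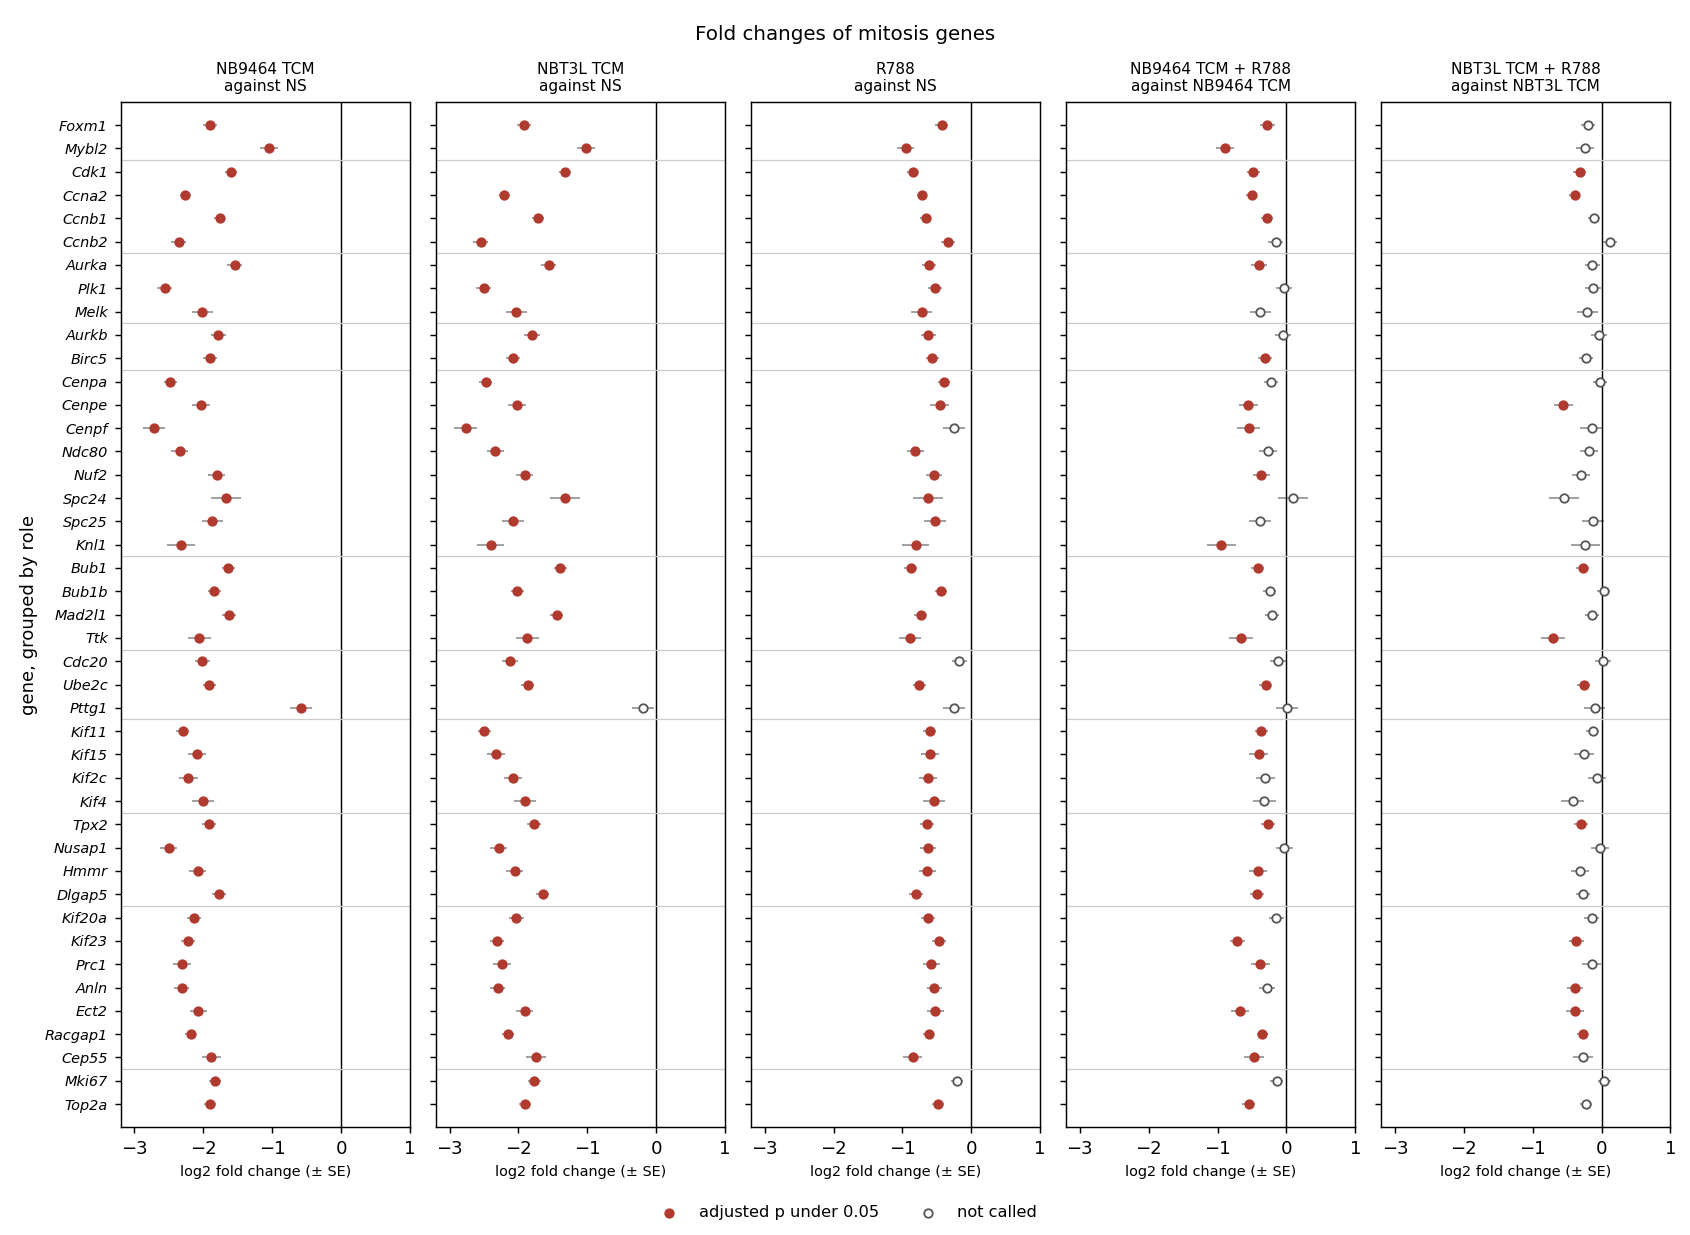
Log2 fold changes (horizontal axis, points with ± SE bars) of the 43 members (rows, grouped by role) in 5 comparisons, with filled points for adjusted p under 0.05. All points but Pttg1 lie at or below -1.02 in the 2 TCM panels, between -0.95 and -0.18 with R788 alone, between -0.95 and 0.09 for R788 in NB9464 TCM and between -0.70 and 0.11 for R788 in NBT3L TCM.

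When R788 was added to NB9464 TCM, 25 members were called lower than with NB9464 TCM alone, none was called higher, and the median was -0.35. Over all genes 14.5% were called and 8.7% called lower. The largest changes were of the kinetochore scaffold gene Knl1, at -0.95 ± 0.21 (SE, DESeq2 adjusted p = 9.46e-05), and Mybl2, at -0.89 ± 0.14 (adjusted p = 1.7e-09). The cytokinesis genes Kif23 and Ect2 gave -0.71 ± 0.11 (adjusted p = 3.71e-09) and -0.67 ± 0.13 (adjusted p = 7.12e-06). Top2a, Ccna2 and Cdk1 gave -0.55 ± 0.088 (adjusted p = 1.27e-08), -0.50 ± 0.080 (adjusted p = 1.39e-08) and -0.48 ± 0.094 (adjusted p = 6.21e-06). Smaller falls were called for Ccnb1 at -0.28 ± 0.085 (adjusted p = 0.008), Foxm1 at -0.28 ± 0.10 (adjusted p = 0.0419), Birc5 at -0.31 ± 0.10 (adjusted p = 0.014) and Ube2c at -0.30 ± 0.098 (adjusted p = 0.0145), and for Kif11 at -0.37 ± 0.097 (adjusted p = 0.00191), Tpx2 at -0.28 ± 0.10 (adjusted p = 0.0391) and Racgap1 at -0.35 ± 0.085 (adjusted p = 0.000543). Among the 18 not called, Plk1 gave -0.037 ± 0.11 (adjusted p = 0.884), Aurkb -0.047 ± 0.11 (adjusted p = 0.852) and Nusap1 -0.032 ± 0.13 (adjusted p = 0.912). The 95% intervals of these 3 differences ran from -0.26 to 0.19, from -0.27 to 0.17 and from -0.28 to 0.21. The number of members called fell to 11 without NB9464 TCM library SJ3, to 15 without NB9464 TCM + R788 library SJ9, and to 13 in a fit of only the 4 libraries compared. Ccnb1 and Kif11 lost their calls without SJ3 or SJ9, Racgap1 without SJ3 or SJ10, Birc5 and Tpx2 without SJ3, SJ4 or SJ9, Ube2c without SJ3, SJ4 or SJ10, and Foxm1 without any of the 4.

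In NBT3L TCM, 11 members were called lower with R788 than without it, none was called higher, and the median was -0.22. Over all genes 12.6% were called and 7.24% called lower. Both libraries with R788 lay below both without it for 31 of 43 members in NBT3L TCM, against 27.4% of all genes, and for 38 of 43 in NB9464 TCM, against 26.4%. The 11 were Ttk at -0.70 ± 0.17 (SE, DESeq2 adjusted p = 0.000868), the kinetochore motor gene Cenpe at -0.56 ± 0.14 (adjusted p = 0.000893), Ccna2 at -0.39 ± 0.080 (adjusted p = 2.88e-05), Cdk1 at -0.32 ± 0.093 (adjusted p = 0.00606), Tpx2 at -0.30 ± 0.10 (adjusted p = 0.0227), Racgap1 at -0.28 ± 0.085 (adjusted p = 0.0112) and Ube2c at -0.26 ± 0.098 (adjusted p = 0.0479), together with Bub1, Kif23, Anln and Ect2. Mybl2, lowered in NB9464 TCM, was not called here, at -0.24 ± 0.13 (adjusted p = 0.25). Mki67, Ccnb2, Bub1b and Cdc20 had values just above 0, of which the highest was Ccnb2 at 0.11 ± 0.11 (adjusted p = 0.602). Leaving out any one of the 4 libraries left between 4 and 6 members called: 6 without SJ5, 5 without SJ6, 4 without SJ11 and 5 without SJ12. Cdk1 lost its call without SJ6, SJ11 or SJ12, Tpx2 without SJ5, SJ11 or SJ12, and Ube2c and Racgap1 without any of the 4. Only Ccna2, of the members with values given for every library, kept its call in each of these fits.

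Whether the R788 effect itself differed with the medium was tested as an interaction, the R788 log2 fold change in TCM minus that without TCM, where a positive value means a smaller or no fall in TCM. For NB9464 TCM the median interaction was 0.24, and 10 members were called, all positive. Over all genes 12.5% were called and 6.22% called positive. They were Cdk1 (0.37), Ccnb1 (0.38), Bub1 (0.47), Ube2c (0.45), Kif20a (0.48), Plk1 (0.50), Mad2l1 (0.53), Ndc80 (0.54), Aurkb (0.58) and Nusap1 (0.59). Nusap1 shows the pattern: R788 alone gave -0.62 ± 0.12 (SE, DESeq2 adjusted p = 1.07e-06), whereas in NB9464 TCM the interval of its R788 effect spanned 0. For NBT3L TCM the median was 0.40, and 20 members were called, all positive, against 10.1% of all genes called and 5.17% called positive. The largest was Mybl2 at 0.71 ± 0.18 (adjusted p = 0.0019), and Ndc80, Bub1, Nusap1 and Mad2l1 followed with 0.63, 0.61, 0.60 and 0.60. Both interactions use the same NS and R788 libraries, so they share any deviation of those 4. The count for NB9464 TCM fell to 4 without SJ1, 5 without SJ2, 6 without SJ4 and 5 without SJ9. That for NBT3L TCM fell to 12 without SJ1, 10 without SJ2, 13 without SJ6, 11 without SJ11 and 10 without SJ12. Without R788 library SJ8 the counts were 9 and 19.

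**Figure D4:**
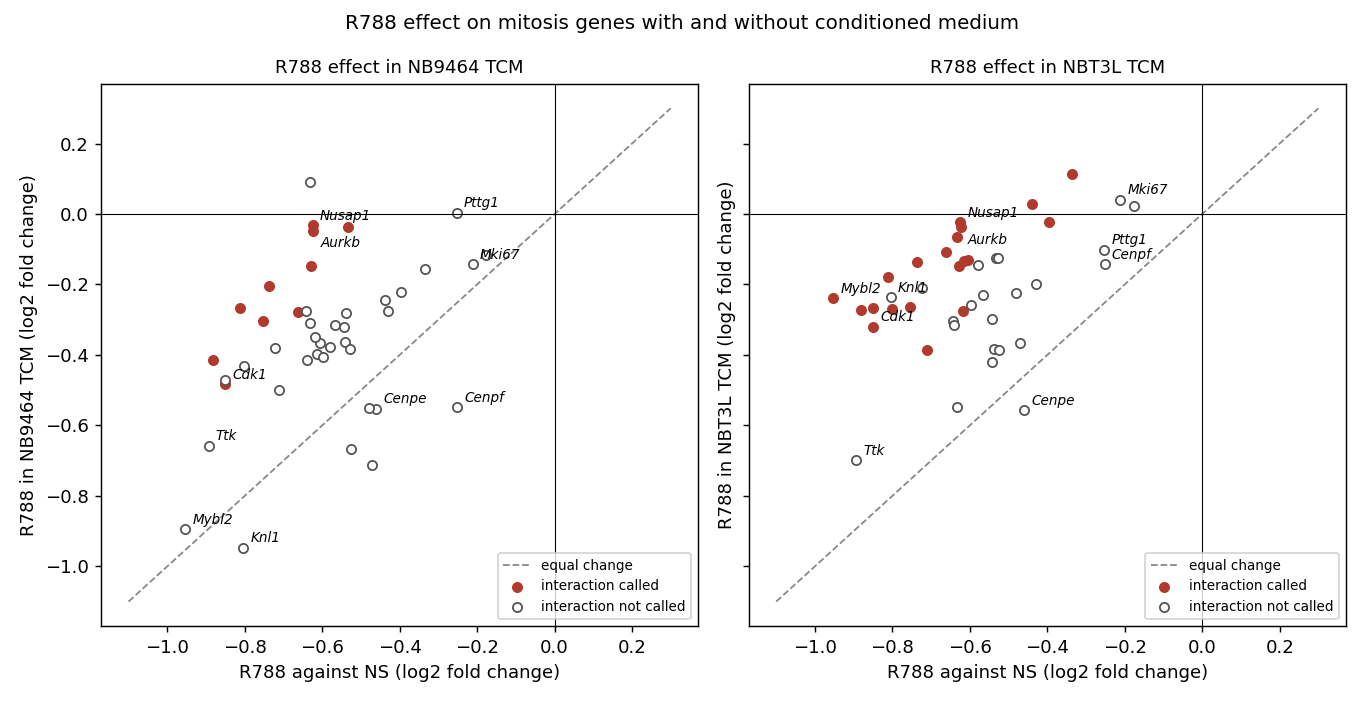
Log2 fold change with R788 in NB9464 TCM (left) and NBT3L TCM (right) against that with R788 alone, 1 point per member, filled where the interaction was called. In NB9464 TCM 37 of 43 points and in NBT3L TCM 42 of 43 lie above the dashed line of equal change, and every filled point does.

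The R788 effects in the 3 media rest on separate libraries. Across the 43 members, Pearson's r between the effect without TCM and that in TCM was 0.396 for NB9464 and 0.436 for NBT3L, and 0.434 between the 2 kinds of TCM, beside 0.134, 0.150 and 0.167 across all 16281 genes. These are descriptions across genes, which are not independent replicates. R788 gave a value below 0 both without TCM and in NB9464 TCM for 41 members, and both without TCM and in NBT3L TCM for 39.

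The 2 conditioned media were also compared with each other. Without R788 only Cdk1 was called, with a difference, NB9464 TCM minus NBT3L TCM, of -0.28 ± 0.093 (SE, DESeq2 adjusted p = 0.0277), and the median over the members was -0.03. Over all genes 9.4% were called and 5.72% called lower in NB9464 TCM. The Cdk1 call was lost with edgeR, in a fit of only the 4 libraries, and without SJ3, SJ4 or SJ6. For Ccnb1 the difference was -0.044 ± 0.084 (adjusted p = 0.827), with a 95% interval from -0.21 to 0.12, and for Plk1 -0.062 ± 0.11 (adjusted p = 0.822), from -0.28 to 0.16. Pttg1 stood at 869 and 888 in NB9464 TCM and 1129 and 1171 in NBT3L TCM, without overlap, but its difference of -0.39 ± 0.16 (adjusted p = 0.0831) was not called. With R788 in both media, 6 members were called lower in NB9464 TCM + R788 (9.62% of all genes called, and 6.09% called lower). These were Mybl2 at -0.68 ± 0.14 (adjusted p = 2.31e-05), Knl1 at -0.63 ± 0.21 (adjusted p = 0.0297), Cdk1 at -0.44 ± 0.094 (adjusted p = 9.64e-05), Ect2 at -0.44 ± 0.13 (adjusted p = 0.0105), Bub1 at -0.39 ± 0.097 (adjusted p = 0.00131) and Top2a at -0.32 ± 0.088 (adjusted p = 0.00529), and the median was -0.14. The count was 3 without SJ9 or without SJ12. A test of whether the R788 effect differed between the 2 kinds of TCM called 0 members with DESeq2 and 0 with edgeR, with 6 at an unadjusted p under 0.05, and 0.706% of all genes. Knl1 had the largest such difference, -0.71 ± 0.29 (adjusted p = 0.41), and Mybl2 the next, -0.66 ± 0.19 (adjusted p = 0.0668). Against NS, the groups with both TCM and R788 had the lowest levels, with medians of 19.5% of NS for NB9464 TCM + R788 (43 members called lower, against 19.4% of all genes called lower and 39.5% called) and 21.7% for NBT3L TCM + R788 (42 called lower, against 19.7% called lower and 39.8% called).

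Other genes of the cell cycle, in lists chosen with earlier results of these data known, were read beside the members. Of 67 other mitotic genes, 64 were called lower in each TCM and 1 higher, with medians of -1.64 and -1.55, and 55 were called lower and 1 higher with R788 alone, with a median of -0.55. Cdca3, a cell division cycle protein, gave -2.42 ± 0.093 (SE, DESeq2 adjusted p = 3.98e-146) in NB9464 TCM. The exception was Zwint, a kinetochore protein that links Knl1 to the checkpoint, which rose by 0.31 ± 0.071 (adjusted p = 8.15e-05) with medium of NB9464 and 0.52 ± 0.071 (adjusted p = 3.61e-12) with that of NBT3L. Of 42 DNA replication genes, 37 were called lower and 1 higher in each TCM, with smaller medians of -0.85 and -0.71, and 40 were called lower with R788 alone, with a median of -0.77. Thymidine kinase Tk1 gave -1.55 ± 0.078 (adjusted p = 1.2e-85) in NB9464 TCM, and the sliding clamp gene Pcna -1.40 ± 0.056 (adjusted p = 6.57e-134) with R788. The one replication gene that rose in TCM was E2f1, a factor of S-phase entry, by 0.28 ± 0.081 (adjusted p = 0.00231) and 0.35 ± 0.081 (adjusted p = 8.6e-05). The order of the 2 treatments thus differed between the lists: TCM medians were the larger for mitotic genes, while for replication genes the median with R788 lay between those of the 2 media. This difference between lists was not tested.

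Of 16 APC/C subunit genes 7 were called lower in NB9464 TCM, 6 were called lower and 1 higher in NBT3L TCM, and 6 were called lower with R788, with medians of -0.27, -0.14 and -0.24. Anapc5 gave -0.84 ± 0.057 (SE, DESeq2 adjusted p = 3.21e-47) in NBT3L TCM. Among 8 G1 cyclins and kinases, 3 were called lower and 2 higher in NB9464 TCM, 4 lower and 1 higher in NBT3L TCM, and 5 lower with R788. Ccnd1, cyclin D1, which couples growth factor signals to the cycle, gave -2.08 ± 0.095 (adjusted p = 3.56e-104) with medium of NB9464 and -1.91 ± 0.095 (adjusted p = 9.99e-88) with that of NBT3L. It was lower again when R788 was added, at -1.58 ± 0.099 (adjusted p = 2.3e-55) and -1.24 ± 0.098 (adjusted p = 8.57e-35). Of 24 inhibitors and quiescence regulators, 14 were called lower and 3 higher in NB9464 TCM and 12 lower and 4 higher in NBT3L TCM. The CDK inhibitor gene Cdkn2c (p18) was lower, at -2.08 ± 0.089 (adjusted p = 1.02e-118) and -2.17 ± 0.090 (adjusted p = 6.22e-125), and the antiproliferative gene Btg2 was higher in NB9464 TCM, by 0.65 ± 0.12 (adjusted p = 1.61e-07).

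**Figure D5:**
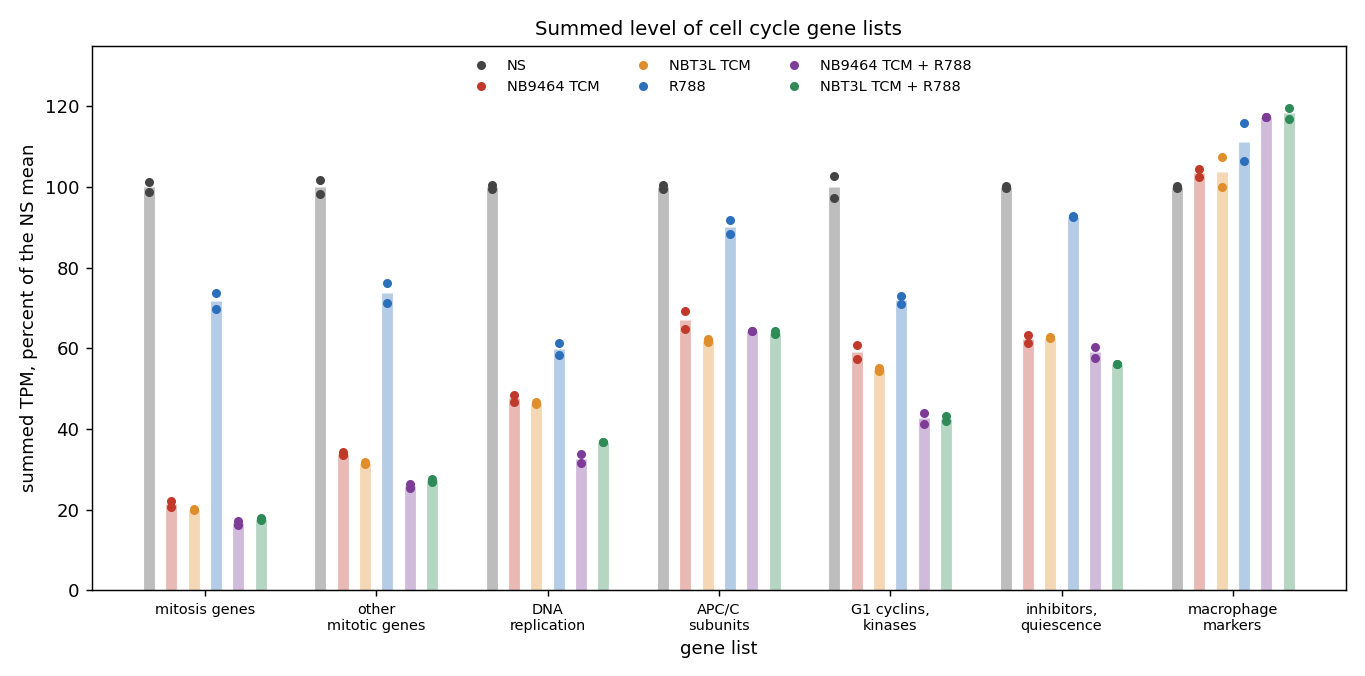
Summed TPM of 7 gene lists in the 6 groups, as a percent of the NS mean (bars are means, points the 2 libraries, axis from 0). The mitosis genes stood at 21.4% in NB9464 TCM, at 17.8% in NBT3L TCM + R788 and at 71.8% with R788, DNA replication genes at 47.6%, 36.8% and 59.7%, and macrophage markers at 103%, 118% and 111%.

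Markers of other cells were read beside the fall of the mitosis genes. The summed level of 14 myeloid progenitor and neutrophil markers was 524 and 557 TPM in NS, 745 and 697 in NB9464 TCM, 790 and 773 in NBT3L TCM, 541 and 410 with R788, 619 and 583 with NB9464 TCM + R788 and 593 and 608 with NBT3L TCM + R788. It was thus higher in both TCM groups than in NS, but this rise came from S100a8. Within the list, 4 of 13 tested were called lower and 1 higher in NB9464 TCM, and 5 lower and 2 higher in NBT3L TCM. S100a8, a calcium-binding protein of neutrophils that macrophages can also induce, rose from 108 and 124 TPM in NS to 451 to 563 TPM in the 4 libraries with TCM alone. S100a9 fell, from 293 to 312 TPM in NS to 200 to 220 in NB9464 TCM and 179 to 180 in NBT3L TCM. Ngp also fell, with 86.6 to 89.5, 29.6 to 30.9 and 20.0 to 22.1 TPM in the same groups. The progenitor marker Cd34 moved with the mitosis genes in TCM, at 5.67 to 7.82 TPM in the 4 libraries without TCM and 0.347 to 1.30 TPM in the 8 with it, whereas R788 alone left it at 5.78 and 7.82. Elane, a neutrophil granule protease, was at 2.84 to 4.57 TPM in NS, 0.886 to 1.89 with R788 and at most 0.401 in any TCM library. Mpo, another granule enzyme, was at 1.01 to 1.60 TPM in NS, 0.211 to 0.796 with R788 and at most 0.0919 in any TCM library. Both thus stood lower with R788 alone as well, but neither was called there. Of the 13 tested, 1 was called lower with R788 alone, S100a9, and 0 higher. Ngp, at 96.9 to 101 TPM with R788 alone, lay above its NS range. Other members of the list went the other way. Myb, a factor of progenitors, was at 0.197 to 0.253 TPM in NS, 0.244 to 0.283 with R788 and 0.265 to 1.09 in the TCM libraries, and the protease Prtn3 was at 0.421 to 0.618 TPM in NS, 1.01 to 1.67 with R788 and 0.467 to 1.48 in the TCM libraries. Kit and Flt3 stayed under 0.2 TPM in every library. The summed neuroblastoma markers were 0.298 to 0.712 TPM without TCM and 1.39 to 2.76 TPM with it, against 533 to 731 TPM of mitosis genes in the same TCM libraries. The summed level of 7 stromal markers was 13.3 and 10.1 TPM in NS, 20.8 and 25.2 with R788, 12.9 and 10.2 in NB9464 TCM and 14.9 and 13.5 in NBT3L TCM. It was 14.2 and 16.2 TPM in NB9464 TCM + R788 and 21.6 and 20.8 in NBT3L TCM + R788. With R788 alone 3 of the 7 were called higher and 0 lower, and the collagen gene Col1a1 gave 1.23 ± 0.18 (SE, DESeq2 adjusted p = 2.14e-10). Against NS, 2 were called higher in NB9464 TCM and 3 in NBT3L TCM, with 0 lower. Adding R788 to either TCM gave 2 called higher and 0 lower. The summed level of 10 lymphoid markers was 1.87 to 2.0 TPM in NS, 2.96 and 2.85 with R788 and between 0.351 and 1.09 in the TCM libraries, and of the 2 that passed the filter, Cd4 was called lower in both media. The summed level of 8 erythroid and mast cell markers was between 0.160 and 2.08 TPM in all libraries, and the NS and TCM groups overlapped in NB9464 TCM. NBT3L TCM, at 2.08 and 1.58 TPM, lay above NS, at 0.972 and 0.233. Of the 2 erythroid and mast cell markers tested, 0 were called in either medium. The part of any of these markers' cells in the fall of the mitosis genes was not tested.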

How the data were processed

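Poly(A) RNA of BMDMs was sequenced in 12 libraries. The deposited count table holds whole-number counts per Ensembl gene, not normalized. Per the labels and methods, the authors aligned reads to mm10 in bcbio, and the submitters' processing notes name STAR 2.6.1d, Salmon 1.4.0, SAMtools 1.9, Picard 2.26 and MultiQC 1.11. The program that wrote the counts, and its strand and multi-mapping settings, are not given in the sources used here. The methods describe single reads in triplicate, whereas the labels give paired reads and 2 libraries per group. Among counts from 1 to 40 most were even, so halved counts were also fitted.

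Genes that reached 10 counts in 2 or more libraries were fitted in R 4.3.3 with DESeq2 1.42.0, in 1 model of the 6 group means with median-of-ratios scaling. Wald tests gave unshrunken log2 fold changes, with Benjamini-Hochberg adjustment over all 16281 genes and a threshold of 0.05. Intervals are at 95%. Alternatives were edgeR 4.0.16 (quasi-likelihood, TMM), TMM scaling in DESeq2, no filter, a mean of at least 50 counts, counts divided by 2, only the libraries compared, and leaving out each library in turn. TPM values were computed from the deposited counts and the table's gene lengths. Positions are from GENCODE M21 on GRCm38. The fits were also run on simulated data with the same dispersion for every gene and library. Spread between replicates differed among the groups here, so the simulation does not measure how reliable calls are in these libraries. Tables and plots used Python 3.11.15, pandas 2.3.3 and matplotlib 3.10.9.

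The members and gene lists were chosen with earlier results of these data known. Values in every library are given for Mki67, Top2a, Cdk1, Ccnb1, Foxm1 and Mybl2 and, in each of 11 role groups, for the member with the highest mean TPM and the one with the largest absolute Wald statistic. Of other lists, the called gene with the lowest adjusted p in a direction could be named. Pttg1 was added after its values were seen.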

Additional observations from a re-analysis of the deposited data

Results flagged for a closer look

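The R788 effect differed between macrophages with and without TCM for some members, by the DESeq2 interaction test. With NB9464 TCM 10 members passed, against 12.5% of all genes called and 6.22% called positive, and with NBT3L TCM 20 did, against 10.1% and 5.17%. All had a positive difference, that is a smaller or no fall in TCM. Leaving out 1 library gave 4 to 10 members for NB9464 TCM, with 4 without SJ1, and 10 to 19 for NBT3L TCM, with 10 without SJ2 or SJ12. For NB9464 TCM the log2 differences of the effect were 0.37 for Cdk1, 0.38 for Ccnb1, 0.45 for Ube2c, 0.50 for Plk1, 0.54 for Ndc80, 0.58 for Aurkb and 0.59 for Nusap1. For NBT3L TCM they were 0.53 for Cdk1, 0.56 for Ccnb1, 0.45 for Ccnb2, 0.32 for Ccna2 and 0.71 for Mybl2. Those of the spindle and kinetochore genes were 0.58 for Aurkb, 0.63 for Ndc80, 0.37 for Cenpa, 0.47 for Bub1b, 0.47 for Kif11 and 0.60 for Nusap1. Ube2c stood at 0.49 and Racgap1 at 0.34. Both sets share the NS and R788 libraries, and groups of 2 libraries allow no test for an outlying library.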

How the results depend on the processing

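The falls of the mitosis genes in either TCM were the most stable: each of the 20 members with values in every library kept its direction and its side of the threshold in 200 of 200 alternative values for NB9464 TCM and in 200 of 200 for NBT3L TCM. Over the 5 comparisons, 936 of 1000 values kept both, 48 lost the call, 6 gained it and 10 changed sign. Those 10 came from leaving out a library, were near 0 and were not called. For R788 in NB9464 TCM, leaving out a library gave Aurkb -0.096 to 0.0027, and Nusap1 reached 0.031 and 0.11. For R788 in NBT3L TCM it gave Mki67 -0.017 to 0.095, Cenpa -0.082 to 0.042 (also 0.011), Bub1b -0.059 to 0.12, Cdc20 -0.097 to 0.13 (also -0.047), and Nusap1 -0.090 to 0.038. With edgeR, 7 members were called for R788 in NBT3L TCM and 0 between the 2 kinds of TCM. In fits of only the libraries compared, 13 were called for R788 in NB9464 TCM and 0 between the 2 kinds of TCM. The median for R788 in NBT3L TCM was -0.217 with edgeR and with TMM scaling. For the difference of the R788 effect between media, 1 member was called with TMM scaling and 1 with a mean of at least 50 counts. The cause of these moves was not tested.

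Leaving out 1 library at a time gave 43 members and medians of -1.976 to -1.956 for NB9464 TCM, and 42 and -2.0 to -1.98 for NBT3L TCM. It gave 37 to 38 and -0.67 to -0.56 for R788 alone, 11 to 19 and -0.35 to -0.33 for R788 in NB9464 TCM, and 4 to 6 and -0.23 to -0.19 for R788 in NBT3L TCM. Between the media it gave 0 to 1 and -0.078 to -0.011, and with R788 in both 3 to 6 and -0.17 to -0.13. Against NS, NB9464 TCM + R788 kept 43 with -2.36 to -2.30, and NBT3L TCM + R788 42 with -2.23 to -2.18. Interactions gave 4 to 10 and 0.21 to 0.32 for NB9464 TCM, 10 to 19 and 0.36 to 0.42 for NBT3L TCM, and 0 to 1 and -0.16 to -0.098 for their difference. A lone library was assumed to vary like the other groups. No paired analysis was possible because the labels give each library its own number.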
